A study of Homo sapiens with 4 samples.

Results

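Glutathione and thioredoxin are the paired thiol systems that keep the cytosol reduced, and 9 genes of these systems were followed after knockdown of the long noncoding RNA USP2-AS1 in A549 cells. The genes are SLC7A11, GCLC, GCLM, GSS, GSR, TXN, TXNRD1, PRDX1 and SRXN1, all known targets of the transcription factor NRF2. They were taken by gene name from the deposited table of 6828 genes, which holds 7 of the 9. GSS, the glutathione synthetase that completes the tripeptide, and GSR, the reductase that recycles oxidized glutathione, are not among its rows and were not analysed here. Every one of the 6828 rows has an adjusted p of less than 0.05 in the authors' own comparison, so the table is selected on the contrast described below. The names were also chosen with this contrast in view. The values of the 7 genes are therefore given as a description. Standard errors and the count of members past the study's thresholds come from that same contrast and are no independent test of it.

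A549 is a human lung adenocarcinoma cell line of epithelial type. The cells were infected with lentiviruses expressing a control shRNA (shctrl, 2 libraries) or a USP2-AS1 shRNA (shUSP2-AS1, 2 libraries), and total RNA was taken 72 h after infection. All 4 libraries thus came from infected cells carrying a hairpin, and no uninfected cells, rescued cells or second hairpin entered the comparison. Which of the published USP2-AS1 hairpins was used is not given in the sources used here. The study describes the libraries of a group as biological replicates. The deposited table names the library columns by hairpin codes that differ from the sample titles, and the code for a scrambled hairpin was read as shctrl and the only other code as shUSP2-AS1. Poly-A RNA was sequenced, and values are normalized read counts, that is, reads of a gene divided by a size factor of the library.

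In a normal cell the adaptor KEAP1 marks NRF2 for destruction, and oxidants or electrophiles release it. A549 cells carry defective KEAP1, so that NRF2 is constitutively active and its target genes are strongly expressed. The cystine importer SLC7A11 and the glutamate-cysteine ligase subunits GCLC and GCLM feed glutathione synthesis. In the parallel branch, thioredoxin reductase 1 (TXNRD1) passes electrons from NADPH to thioredoxin (TXN), which in turn reduces peroxiredoxins such as PRDX1, while sulfiredoxin (SRXN1) repairs overoxidized peroxiredoxin.

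NRF2 binds with small MAF proteins to the antioxidant response element, whose core is TGACNNNGC on either strand. RefSeq promoter windows on GRCh38.p14, from 250 bases before to 50 bases after a gene start, were at hand for 5 of the members, GCLC, GCLM, TXN, TXNRD1 (2 windows) and SRXN1. The core occurred in the window of GCLM and in both windows of TXNRD1, and in 13.3% of all 35116 windows. The 4 matches are printed on the strand of the gene with 10 flanking bases, since these genes differed in opposite directions, and the capitals mark the 9 bases that match the core.
GCLM, chr1:93909446-93909474, minus strand, core on the opposite strand beginning 34 bases before the start: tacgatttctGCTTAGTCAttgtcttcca
TXNRD1 upstream window, chr12:104215670-104215698, plus strand, core on the gene strand beginning 99 bases before the start: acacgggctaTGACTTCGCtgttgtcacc
TXNRD1 upstream window, chr12:104215761-104215789, plus strand, core on the opposite strand beginning 8 bases before the start: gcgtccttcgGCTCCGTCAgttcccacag
TXNRD1 downstream window, chr12:104286920-104286948, plus strand, core on the opposite strand beginning 102 bases before the start: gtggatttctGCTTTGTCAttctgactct
The absence of the core from the windows of GCLC, TXN and SRXN1 says only that these letters are not in those windows. SLC7A11 and PRDX1 had no window.

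The reads of the listed genes summed to between 10772788 and 14120472 per library, a part of its full depth, and each of the 7 members had between 1374 and 34794 reads in a library. USP2-AS1 itself was listed at 23.2 and 24.2 normalized reads in shctrl and at 2.10 and 6.16 in shUSP2-AS1. Its values were thus lower in both knockdown libraries. With so few reads the size of the difference is poorly determined, at a log2 fold change of -2.39 (standard error 0.56). Of 6 epithelial markers, KRT7, KRT8, KRT18 and KRT19 are listed, each with at least 3254 normalized reads in every library, and EPCAM and CDH1 are not. These keratins differed between the groups as well. KRT18 was called lower, with a log2 fold change of -1.05, KRT8 had -0.77 and KRT7 -0.49, while KRT19 had 0.75. Their summed normalized reads ranged from 168132 to 179244 in shctrl and from 106336 to 112823 in shUSP2-AS1, and its part in the results was not tested. Of 9 fibroblast, leukocyte and endothelial markers, only COL1A1 is listed, at 261 and 293 in shctrl and 530 and 618 in shUSP2-AS1, and its part in the results was not tested.

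Knockdown of USP2-AS1 was accompanied by opposite differences within this group. In shUSP2-AS1 cells TXNRD1 was at 28.9% of its shctrl level and GCLC at 66.9%, while PRDX1, SLC7A11, TXN, GCLM and SRXN1 were between 1.17- and 1.36-fold of their shctrl level. The study called genes below an adjusted p of 0.05 with a change of at least 1 on the log2 scale. By limma at these thresholds, 1 of the 7 members was called, TXNRD1, and it was called lower. Among all 6812 genes tested, 29.7% were called, that is, 13.5% lower and 16.1% higher. Nothing is read from the count of members, since the choice of genes and the table both rest on this contrast. The libraries of the groups did not overlap for any of the 7 members, which was so for 6811 of the 6812 genes tested (100%). In bulk RNA, a smaller number of expressing cells and less RNA per cell cannot be told apart.

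**Figure D1:**
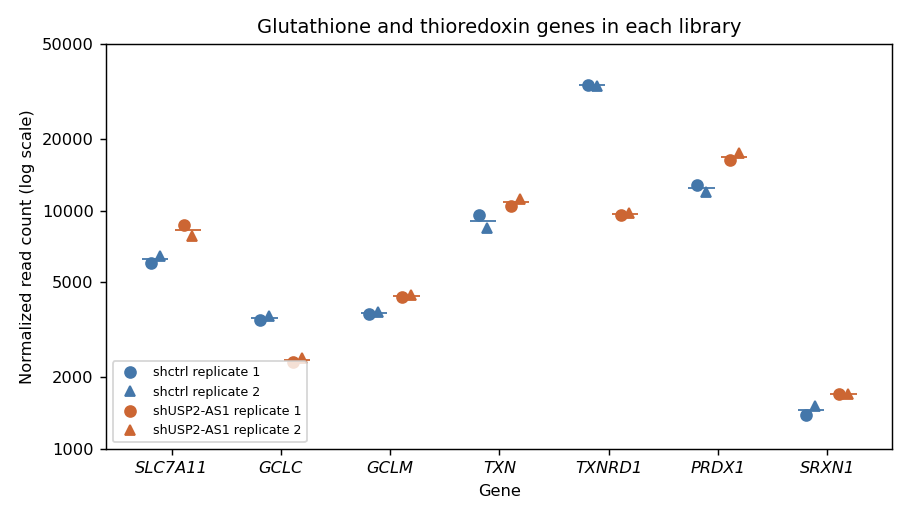
Normalized read count (log scale) of the 7 listed genes in each of the 4 libraries, with circles for replicate 1, triangles for replicate 2 and a line at the mean of a group. TXNRD1 lies at 33620 and 33354 in the shctrl libraries against 9570 and 9774 in the shUSP2-AS1 libraries, and the other genes differ far less.

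SLC7A11 (ENSG00000151012) is the light chain of the cystine-glutamate antiporter and supplies the cysteine for glutathione. Its normalized read count was 6019 and 6460 in shctrl and 8716 and 7830 in shUSP2-AS1. Both knockdown libraries lay above both controls, with the wider spread in the knockdown group. The means were 6239 ± 312 and 8273 ± 626 (SD, n = 2 each), a log2 fold change of 0.41 (standard error 0.06). In GRCh38 coordinates, used for all genes here, it spans 138164097 to 138242349 on chromosome 4 (minus strand).

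GCLC (ENSG00000001084) encodes the catalytic subunit of glutamate-cysteine ligase, the rate-limiting enzyme of glutathione synthesis. It had a normalized read count of 3459 and 3610 in shctrl and of 2312 and 2415 in shUSP2-AS1. Every knockdown value was thus below every control value, with means of 3535 ± 107 and 2364 ± 72.5 (SD, n = 2 each). The log2 fold change was -0.58 (standard error 0.05), short of the threshold of 1. GCLC lies on the minus strand of chromosome 6, from 53497341 to 53616970.

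GCLM (ENSG00000023909), the modifier subunit that raises the affinity of the ligase for glutamate, differed in the other direction. It had 3667 and 3738 normalized reads in shctrl and 4339 and 4439 in shUSP2-AS1. The means were 3702 ± 49.9 and 4389 ± 70.9 (SD, n = 2 each), and the log2 fold change was 0.25 (standard error 0.05). GCLM lies on the minus strand of chromosome 1, from 93885199 to 93909456. The transcripts of the subunits therefore did not keep their proportion, and protein was not measured here. The ratio of GCLC to GCLM normalized reads, which does not depend on the scaling between libraries, was 0.943 and 0.966 in shctrl and 0.533 and 0.544 in shUSP2-AS1.

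TXNRD1 (ENSG00000198431) is the selenoprotein that reduces thioredoxin in the cytosol. Its normalized read count was 33620 and 33354 in shctrl and 9570 and 9774 in shUSP2-AS1. The replicates were close to each other and the groups far apart, with means of 33487 ± 189 and 9672 ± 144 (SD, n = 2 each). The log2 fold change was -1.79 (standard error 0.05), a 3.46-fold lower level. Leaving out single libraries gave values between -1.81 and -1.78, and over other scalings and count tests between -1.91 and -1.73. The gene spans 104215779 to 104350307 on the plus strand of chromosome 12.
By normalized read count TXNRD1 was number 28 of the 6828 listed genes in shctrl and number 168 in shUSP2-AS1. Among the 140 tested genes with a mean of at least 10000, a limit set after its value was seen, none had a lower log2 fold change, and the next lowest was -1.27. That mean was over both groups, and TXNRD1, at 9672 in shUSP2-AS1, passed it through shctrl. The limit leaves out genes that fell further, such as TOP2A, with 10101 in shctrl and a log2 fold change of -2.46. Nothing is read from the place of TXNRD1 among these genes. It accounted for 0.282% of the summed values of the listed genes in each shctrl library and for 0.0777% and 0.0786% in the shUSP2-AS1 libraries.

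The GENCODE 44 gene TXNRD1 encloses 2 other listed genes on the same strand. EID3, a retrogene, had 159 and 127 normalized reads in shctrl and 87.3 and 81.0 in shUSP2-AS1. The ribosomal protein pseudogene RPL18AP3 had 1439 and 1319 in shctrl and 1556 and 1674 in shUSP2-AS1. The first was lower and the second higher in the knockdown libraries, and both were at levels far below that of TXNRD1.

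TXN (ENSG00000136810), the substrate of TXNRD1 and electron donor of the peroxiredoxins, had 9553 and 8484 normalized reads in shctrl and 10491 and 11165 in shUSP2-AS1. The knockdown libraries were above the controls by a gap similar to the distance between the shctrl libraries. The means were 9018 ± 756 and 10828 ± 477 (SD, n = 2 each), a log2 fold change of 0.27 (standard error 0.06). TXN lies on the minus strand of chromosome 9, from 110243810 to 110256507. The ratio of TXNRD1 to TXN was 3.52 and 3.93 in shctrl and 0.912 and 0.875 in shUSP2-AS1. It was thus 4.17-fold lower after knockdown, the largest shift of the 4 ratios computed.

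PRDX1 (ENSG00000117450), an abundant peroxidase that reduces hydrogen peroxide with electrons from thioredoxin, had 12757 and 11992 normalized reads in shctrl and 16316 and 17390 in shUSP2-AS1. Its means were 12374 ± 541 and 16853 ± 759 (SD, n = 2 each). The log2 fold change, 0.45 (standard error 0.05), was the highest of the members. Without shctrl replicate 2 it was 0.40, below the 0.46 of SLC7A11, so the order of PRDX1 and SLC7A11 is not resolved. In the deposited table PRDX1 lies on the minus strand of chromosome 1, from 45511036 to 45523047.
SRXN1 (ENSG00000271303), which returns hyperoxidized peroxiredoxins to the active form, had 1391 and 1510 normalized reads in shctrl and 1691 and 1700 in shUSP2-AS1. The means were 1451 ± 83.8 and 1696 ± 6.47 (SD, n = 2 each), a log2 fold change of 0.23 (standard error 0.06), the smallest difference in the group. Without shctrl replicate 2 it was 0.28, above the 0.18 of TXN, so this place is not resolved. SRXN1 lies on the minus strand of chromosome 20, from 646615 to 653200. The ratio of SRXN1 to PRDX1 was 0.109 and 0.126 in shctrl and 0.104 and 0.0978 in shUSP2-AS1, a transcript ratio that was 1.17-fold lower after knockdown, the smallest shift of the 4 ratios.

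Set per kilobase of exon, the members covered a wide range of levels. In shctrl, TXN (8929 ± 748 normalized reads per kb, SD, n = 2) and PRDX1 (8228 ± 360) stood highest, and their libraries overlapped, so their order is not resolved. TXNRD1 came next with 4991 ± 28.1 per kb. GCLM followed with 682 ± 9.20 and SLC7A11 with 647 ± 32.3, a difference close to the spread of SLC7A11. SRXN1 had 574 ± 33.2 per kb and GCLC, the lowest, 410 ± 12.4.
In shUSP2-AS1, PRDX1 (11206 ± 505 per kb) and TXN (10720 ± 472) again overlapped at the top. TXNRD1 was still the third, now at 1441 ± 21.5 per kb. SLC7A11 (858 ± 64.9) and GCLM (809 ± 13.1) overlapped, SRXN1 had 671 ± 2.56 and GCLC 274 ± 8.42. The lengths are those of the deposited table, which for 6 of the 7 genes equal the summed exons of the gene in GENCODE 44. They include exons of rarely used transcripts, which lowers the value per kb of genes with many isoforms.

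**Figure D2:**
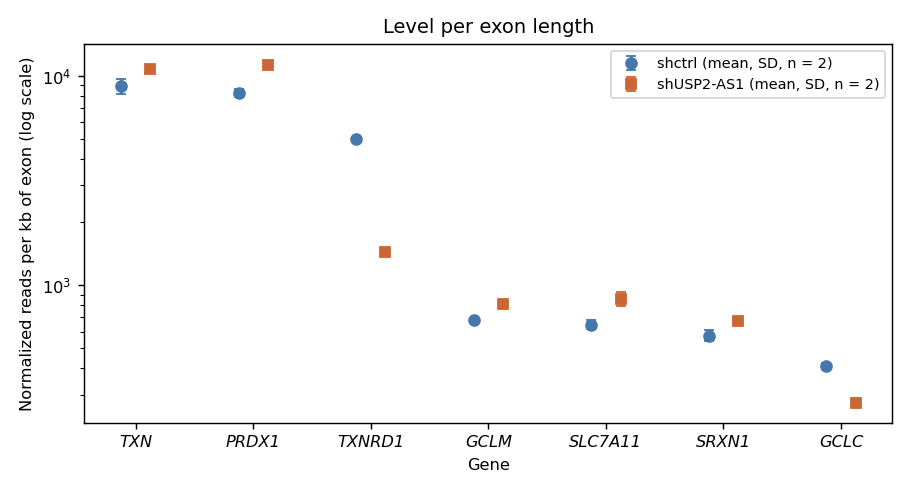
Normalized reads per kb of exon (log scale) of the 7 genes, as mean with SD bars (n = 2) in shctrl (circles) and shUSP2-AS1 (squares). TXNRD1 was at 4991 per kb in shctrl and at 1441 in shUSP2-AS1, and kept its place between the pair TXN and PRDX1 and the other 4 genes.

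The median log2 fold change of the 7 members was 0.25, against 0.19 for all genes tested, and their median absolute change was 0.41, against 0.69. Because of the selection, only 102 of the 6812 genes had an absolute log2 fold change below 0.2, and the median of all genes lies in the gap between a lower group (median -0.68) and a higher group (median 0.71). Among the 3450 higher genes, 2.75% differed less than SRXN1, 4.35% less than GCLM, 5.80% less than TXN, 18.5% less than SLC7A11 and 23.4% less than PRDX1. Among the 3362 lower genes, 39.4% differed less than GCLC and 90.7% less than TXNRD1. The higher members were thus near the small end of the listed changes and TXNRD1 was near the large end. Scaling the recovered reads by RLE moved the median of all genes by -0.12, and the 5 members stayed above 0 there, with values of 0.11 or more. Summed over the 7 members, the normalized read count was 69806 in shctrl and 54074 in shUSP2-AS1. Without TXNRD1 it was 36320 and 44402, so the lower sum came from that gene.

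**Figure D3:**
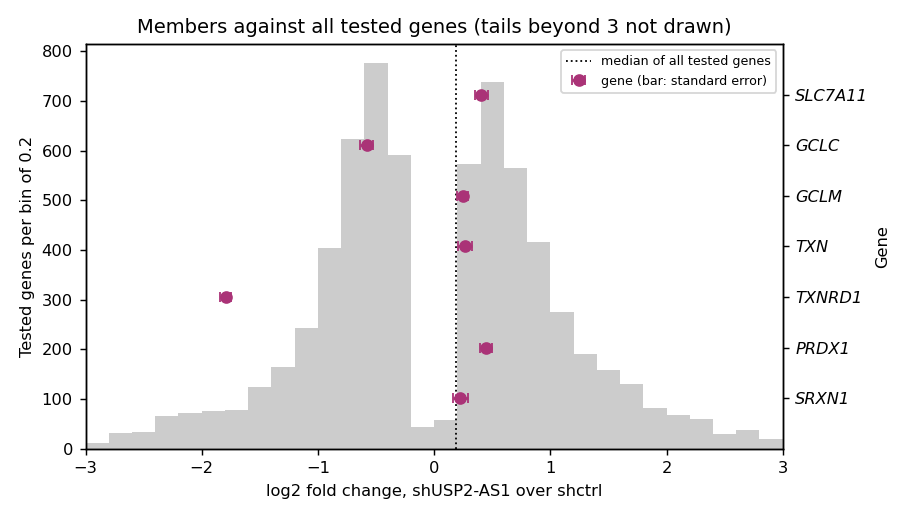
Log2 fold change (shUSP2-AS1 over shctrl) of the 7 genes, with standard error bars, over the histogram of all 6812 tested genes and its median (dotted line). TXNRD1 at -1.79 and GCLC at -0.58 lie on the low side, and the other 5 genes lie between 0.23 and 0.45, at the inner edge of the higher genes.

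Ratios taken within a library described the same pattern without any scaling. SLC7A11 to GCLC, import against ligation, was 1.74 and 1.79 in shctrl and 3.77 and 3.24 in shUSP2-AS1, that is, 1.99-fold higher. For all 4 ratios, the libraries of the groups did not overlap. This was so for 6811 of the 6812 single genes tested, and no share over other gene pairs was computed. For SRXN1 to PRDX1 the nearest libraries of the groups, 0.109 and 0.104, were closer than the shctrl libraries, 0.109 and 0.126.

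**Figure D4:**
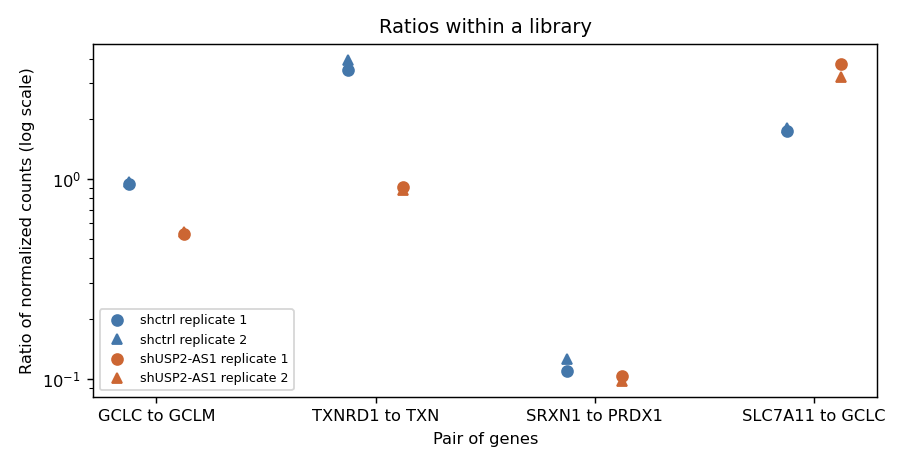
Ratio of normalized read counts of 4 gene pairs in each library (log scale), with circles for replicate 1 and triangles for replicate 2. TXNRD1 to TXN was 3.73 on average in shctrl and 0.894 in shUSP2-AS1, and SRXN1 to PRDX1 was 0.117 and 0.101.

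The genes whose profile over the 4 libraries was nearest to that of TXNRD1, among tested genes with a mean of at least 100, were CHTF18, PABPC4, CENPO, POLDIP2 and HJURP. The measure was the Euclidean distance between log2 values centred on the gene's mean, and it lay between 0.0254 (CHTF18) and 0.0503 (HJURP). Their log2 fold changes were between -1.82 and -1.78. CHTF18 belongs to an alternative clamp loader, CENPO and HJURP act at centromeres, and PABPC4 binds poly-A tails. With 4 libraries of 2 groups, likeness is mostly a matter of equal fold change.

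The 21-base target sequences of the USP2-AS1 hairpins of the study and of its control were set against the GENCODE 44 transcripts of the listed genes. They are printed with the longest run shared with a TXNRD1 transcript in capitals.
shUSP2-AS1#1: taatctcagcgAGATGAAGAg
shUSP2-AS1#2: gcaCTCAGTTGtacttcttta
sh-control: cctaAGGTTAAGtcgccctcg
The longest run in TXNRD1 was 9 bases for hairpin #1 and 8 bases for hairpin #2 and for the control. Runs of 9 bases or more with hairpin #1 occurred in 35.5% of the 6717 listed genes that had transcripts, and with hairpin #2 in 24.3%. GCLM and SLC7A11, which were higher after knockdown, shared 10 bases with hairpin #1. Runs of 10 bases or more with that hairpin occurred in 11.5% of the same 6717 genes. Target bases 14 to 20, which pair with the seed of the guide strand, occurred in transcripts of 5 of the 7 members for hairpin #1 and of 5 for hairpin #2, against 57.8% and 52.6% of the listed genes, and in no member for the control hairpin, against 27.6%. TXNRD1 and GCLC, the lower members, held both USP2-AS1 seed sites, and so did GCLM and SLC7A11, which were higher. A shared run or seed site is a description of sequence and not of an effect.

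The wider pathway was described with 7 lists holding 174 genes, of which 106 were tested. Of these, 7 were called lower and 10 higher in shUSP2-AS1 cells, and 89 were not called. With RLE scaling or DESeq2 the split was 10 lower and 7 higher. The share called, 16.0%, stands beside 29.7% of all genes tested. By direction alone, 67 were higher and 39 lower, against 50.6% of all tested genes that were higher. The lists were chosen with earlier results of these data known. Nothing is therefore read from these counts or from those of the single lists below.

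Among other NRF2 target genes, 28 of 40 were tested, and 3 rose, 1 fell and 24 were not called. The median log2 fold change was 0.43, and 23 of the 28 were higher, or 22 with RLE scaling or DESeq2. SPP1, which encodes osteopontin, rose from 3081 ± 180 to 7610 ± 79.4 (SD, n = 2 each), a log2 fold change of 1.31. HMOX1, which encodes the heme-degrading enzyme heme oxygenase 1, fell from 4877 ± 173 to 2153 ± 80.7, a log2 fold change of -1.18. The drug and conjugate exporter ABCC3 had a log2 fold change of 0.82 and the taurine transporter SLC6A6 of 0.90, both short of the threshold. The other genes that rose, named after their values were seen, were CYP4F11, a fatty acid hydroxylase, with 800 and 900.1 normalized reads in shctrl and 1787 and 1710 in shUSP2-AS1, and UGT1A6, a glucuronosyltransferase, with 14.5 and 14.3 against 53.6 and 54.6. The log2 fold change of CYP4F11 was 1.04, and it fell short of 1 with RLE scaling (0.92), with DESeq2 (0.93) and without shctrl replicate 1 (0.96).

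Among the glutathione enzymes, 22 of 40 were tested, of which 1 rose, 1 fell and 20 were not called, while DESeq2 called 3 lower and none higher. The median was 0.46, with 15 higher. GPX3, a secreted glutathione peroxidase, rose from 282 ± 36.5 to 601 ± 0.124 (SD, n = 2 each), a log2 fold change of 1.10, which was 0.98 with RLE scaling or DESeq2 and 0.96 without shctrl replicate 1. MGST1, a membrane-bound glutathione transferase, went from 5216 ± 446 to 10094 ± 384, a log2 fold change of 0.95 that passed 1 without shctrl replicate 1 (1.04) and with upper quartile scaling (1.01), and GSTK1 had 0.65. ANPEP, an aminopeptidase that takes part in extracellular glutathione breakdown, had -0.91. The gene that fell was GGT5, a gamma-glutamyltransferase named after its value was seen, with 54.1 and 54.9 normalized reads in shctrl and 12.6 and 9.68 in shUSP2-AS1.

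In the thioredoxin and peroxiredoxin list, 16 of 31 genes were tested, 3 rose, 2 fell and 11 were not called, with a median of 0.53. MSRB3, a methionine sulfoxide reductase, rose from 1030 ± 36.9 to 2184 ± 39.1 (SD, n = 2 each), a log2 fold change of 1.08, which was 0.97 with RLE scaling or DESeq2. TMX3, a disulfide isomerase of the endoplasmic reticulum, fell with a log2 fold change of -1.16. TXNL4A, named for its thioredoxin-like fold but a component of the spliceosome, fell with -1.06, and TMX4 had 0.90. The value of TXNL4A was -0.996 with upper quartile scaling, -0.97 without shctrl replicate 1 and -0.994 without shUSP2-AS1 replicate 1.
The other genes that rose were named after their values were seen. SESN3, a sestrin, had 102 and 104 normalized reads in shctrl and 307 and 290 in shUSP2-AS1. TXNIP, the protein that binds and inhibits thioredoxin, had 2.90 and 0 normalized reads in shctrl and 33.7 and 26.4 in shUSP2-AS1. These are few reads, so the size of that change is poorly determined, and the gene was not tested when at least 10 reads were required in every library.

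Among the genes of NADPH supply, 18 of 19 were tested, 1 rose, 1 fell and 16 were not called, with a median of 0.35. MTHFD2, a mitochondrial folate enzyme, fell from 2705 ± 95.9 to 1141 ± 92.8 (SD, n = 2 each), a log2 fold change of -1.25. Its cytosolic relative MTHFD1 had -0.94, and was called lower with RLE scaling (-1.06) and with DESeq2 (-1.05). NNT, the mitochondrial transhydrogenase, had 0.94 (1.03 without shctrl replicate 2), and PGLS of the pentose phosphate pathway had 0.72. The gene that rose was ALDH1L1, a folate dehydrogenase named after its value was seen, with 13.5 and 26.4 normalized reads in shctrl and 82.0 and 82.8 in shUSP2-AS1.

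In the cysteine supply list, 12 of 17 genes were tested, 1 rose, 1 fell and 10 were not called. The median was -0.36, with 4 genes higher, or 3 with RLE scaling or DESeq2. CBS, which makes cystathionine from homocysteine, fell from 119 ± 28.5 to 18.4 ± 3.67 (SD, n = 2 each), a log2 fold change of -2.62. SLC1A1, a glutamate and cysteine transporter, rose from 56.1 ± 1.46 to 145 ± 1.88, a log2 fold change of 1.35. AHCY and MAT2A, enzymes of the methionine cycle, had -0.51 and -0.39. SLC3A2, the heavy chain that carries SLC7A11 to the membrane, had 0.13, and 0.0072 with RLE scaling.

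NFE2L2, which encodes NRF2, and KEAP1 are not among the listed genes and were not analysed here. Of 23 NRF2 regulators, 12 were tested, 1 fell and 11 were not called, with a median of -0.27. Without shUSP2-AS1 replicate 1 the count was 2, as AMER1, a scaffold protein of WNT signalling, then had -1.04. None was called higher by limma, edgeR or DESeq2. All 12 had an adjusted limma p below 0.05, as did 6811 of the 6812 genes tested, and the 5 higher genes fell short of the fold change threshold. The gene that fell was MAFF, a small MAF protein named after its value was seen, with 107 and 122 normalized reads in shctrl and 47.3 and 51.9 in shUSP2-AS1. MAFK, another small MAF protein, had a log2 fold change of 0.41, and BACH1, a repressor that competes with NRF2 for its sites, had 0.68. GSK3B, a kinase that marks NRF2 for degradation, had 0.42, and the mitochondrial phosphatase PGAM5 had -0.81.

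Of 13 genes of superoxide and hydrogen peroxide metabolism, 6 were tested, 1 rose and 5 were not called, with a median of 0.33. None was called lower by limma, edgeR or DESeq2. All 6 had an adjusted limma p below 0.05, and the 2 lower genes fell short of the fold change threshold. The mitochondrial superoxide dismutase SOD2 went from 5790 ± 11.3 to 3491 ± 168 (SD, n = 2 each), a log2 fold change of -0.73. Catalase (CAT) had 0.41, GPX1 0.45 and PRDX3 0.24. The gene that rose was DUOX2, an NADPH oxidase named after its value was seen, with 2.90 and 9.89 normalized reads in shctrl and 28.4 and 38.7 in shUSP2-AS1. These are few reads, and with at least 10 reads required in every library DUOX2 was not tested and no gene of the list was called.

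**Figure D5:**
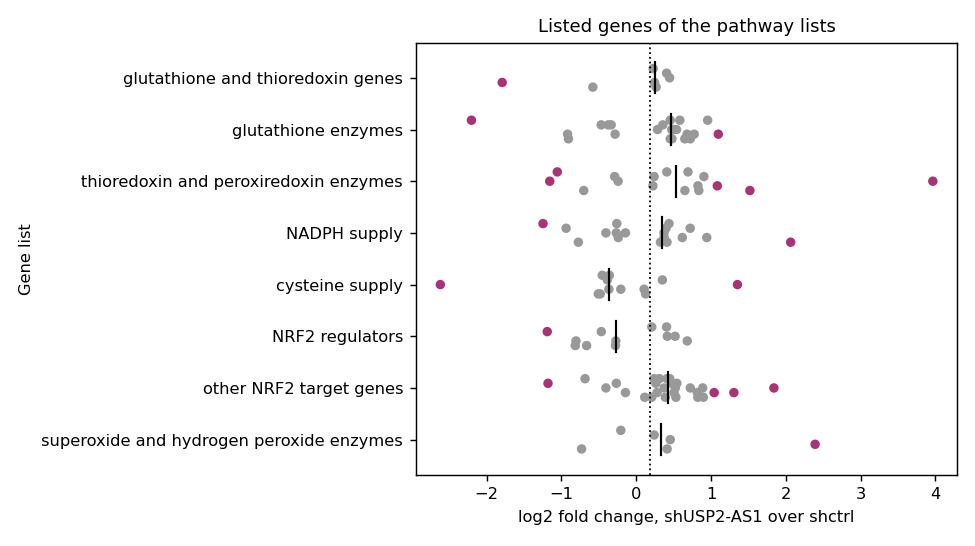
Log2 fold change (shUSP2-AS1 over shctrl) of each tested gene of the 9 named genes and the 7 pathway lists, with called genes in purple, other genes in grey, a short black line at the median of a list and a dotted line at the median of all tested genes (0.19). Other NRF2 target genes lie mostly to the right of 0, with HMOX1 at -1.18 the lowest, and TXNRD1 at -1.79 stands apart from the other members.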

How the data were processed

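RNA was sequenced from 4 libraries. Per the labels, the submitters' processing notes name HISAT2 (2.0.5), featureCounts (1.5.0-p3), DESeq2 (1.20.0) and build hg38. The deposited values are a signal for each gene and library, in which reads had been divided by a size factor. The authors also deposited group means, gene lengths, log2 fold changes and p-values of their own comparison, which were not used beyond checking that all 6828 rows had an adjusted p below 0.05. Library columns bear hairpin codes, not the sample titles. Their assignment was inferred from those codes and the replicate number.

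All values (100% in each library, within 0.01) were whole reads times a constant of the library. Replicate libraries were separate by a chi-square of 3.72 and 3.83 per degree of freedom. Limma (3.58.1, R 4.3.3, trend) was fitted to log2(value + 1) for the 6812 genes with a mean of at least 10, a scale that understates changes of low genes, with Benjamini-Hochberg adjustment. Because the table was selected, these p-values are smaller than over all genes. edgeR (4.0.16) and DESeq2 (1.42.0) were run on the recovered reads, and the tests were checked on simulated data. Coordinates are GRCh38, and the 6717 genes with a GENCODE 44 identifier all overlapped that gene.

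Named genes were the members, USP2-AS1, the 4 lowest p of each list and the 5 genes nearest to the member with the largest change. Members and lists were chosen with earlier results of these data known.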

Additional observations from a re-analysis of the deposited data

How the results depend on the processing

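The count of called members, 1 of 7, was the same under the other scalings, filters, pseudocount, count tests, replicate block and with each library left out (range 1 to 1). Without a fold change threshold it was 7, with 6811 of all genes and 105 of the 106 pathway genes called, since the table lists genes that had passed the authors' test. With each library left out, between 1965 and 2055 genes and between 15 and 18 pathway genes were called, against 2020 and 17. A group left with 1 library was assumed to vary like the other. RLE scaling called 1143 genes lower and 934 higher, DESeq2 1140 and 942, against 922 and 1098, and 10 pathway genes lower and 7 higher in both, against 7 and 10. None of the 7 members changed direction under any alternative. The replicate numbers were not shown to pair libraries (correlation -0.04), and with the replicate block 2020 genes, 1 member and 17 pathway genes were called.

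Whether counting used the strand is not given in the sources used here, and genes on the opposite strand overlap GCLC, TXNRD1, SLC7A11 and PRDX1. On the same strand, besides the genes within TXNRD1, ENSG00000231683 (a listed long noncoding RNA) overlaps GCLC and ENSG00000270299 (not listed) overlaps SRXN1. Their part in the values was not tested. GENCODE 44 names 7 pseudogenes after TXN and 1 after PRDX1. A single hairpin and cell line were compared, so the loss of USP2-AS1 and other effects of the hairpin cannot be told apart.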

Other observations

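TXNRD1 is a selenoprotein, and the other selenoprotein genes were looked at after its value was seen, with a list of 24 genes. Of these, 13 were tested, and 12 were higher in shUSP2-AS1 cells (50.6% of all tested genes were), with a median log2 fold change of 0.64. The count of 12 held under each scaling and count test. The tested genes come from a table selected on this contrast, and the list followed from the value of TXNRD1. Nothing is therefore read from this count or from the calls below. The glutathione peroxidases GPX1, GPX2, GPX3 and GPX4 had log2 fold changes of 0.45, 0.72, 1.10 and 0.47, TXNRD3 had 0.65 and SELENOW had 0.92. GPX2 had 5209 and 4215 normalized reads in shctrl and 7774 and 7688 in shUSP2-AS1. At the thresholds used above, 1 of the 13 was called, GPX3, or 7.69%, against 29.7% of all genes tested. With RLE scaling or DESeq2 its value was 0.98 and 0 of the 13 were called, and without shctrl replicate 1 it was 0.96 and SELENOW (1.03) was called in its place. DIO2, a deiodinase, was the exception, with a log2 fold change of -0.85.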
